A study of Mus musculus with 8 samples.

Results

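Among nuclei sorted from the adult mouse midbrain, 141 of 5740 carried tags of the glutamate vesicle transporter Slc17a6 and few or no tags of dopamine genes. They were chosen by 4 limits on the deposited counts of unique molecular identifiers (UMIs, 1 per captured RNA molecule). A nucleus needed at least 5000 UMIs, fewer than 3 UMIs per 10000 of Th, Slc6a3, Slc18a2 and Ddc together (its dopamine tags), at least 2 UMIs per 10000 of Slc17a6, and fewer than 1.5 UMIs per 10000 of Gad1, Gad2 and Slc32a1 together (its GABA tags). These nuclei are called Slc17a6 nuclei here. They were set beside 4045 dopamine nuclei, which had at least 5 dopamine tags per 10000 and the same minimum depth.

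All mice were 8 months old and of the strain DatCreEed, in which the promoter of the dopamine transporter gene Slc6a3 drives Cre recombinase. Eed is a core subunit of Polycomb repressive complex 2 (PRC2). The wt library was a pool of 2 females and 1 male, and the PRC2 mutant library was another pool of 2 females and 1 male. Each library was read on 4 lanes, which are repeat reads of 1 library and not replicates. Each genotype therefore has 1 library, so genotype and library cannot be told apart, and no test between them was made. Every interval is an exact 95% interval that covers counting error only. The labels do not say which alleles the wt mice carried, and they give the cell type of every sample as mDA.

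Glutamatergic neurons load glutamate into synaptic vesicles with a vesicular transporter, and Slc17a6 (VGLUT2) is the one used in most subcortical neurons. In the ventral midbrain and the regions next to it, such neurons lie among dopamine neurons, and some dopamine neurons also use Slc17a6. PRC2 places a repressive methyl mark on histone H3 and keeps developmental regulators such as the Hox genes silent in differentiated cells. A cell that never expressed Slc6a3 is not a target of this Cre.

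The table held 23481 genes, with 1772 wt nuclei and 3968 mutant nuclei. After the depth limit, 1586 wt and 3678 mutant nuclei were left, with medians of 23440 and 18964 UMIs. The 2 libraries shared 4 barcodes, none of them between Slc17a6 nuclei. No doublet caller was run, and a Slc17a6 nucleus may hold RNA of more than 1 cell.

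In the wt library, 31 of 1586 nuclei met the rule, which is 1.96% (exact binomial interval 1.33% to 2.76%). In the mutant library, 110 of 3678 met it, which is 2.99% (2.46% to 3.59%). Dopamine nuclei made up 79.5% of the wt and 75.7% of the mutant nuclei. Sorting can set such shares, and so can the limit on dopamine tags. Of its 4 genes, Th, Slc6a3 and Slc18a2 were lower by 2-fold or more in mutant than in wt dopamine nuclei. What set the shares was not tested. The Slc17a6 nuclei had a median of 18256 UMIs in wt (range 7607 to 117905) and 21075 in mutant (5328 to 83165), so the depths of both sets overlapped over most of their range.

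**Figure D1:**
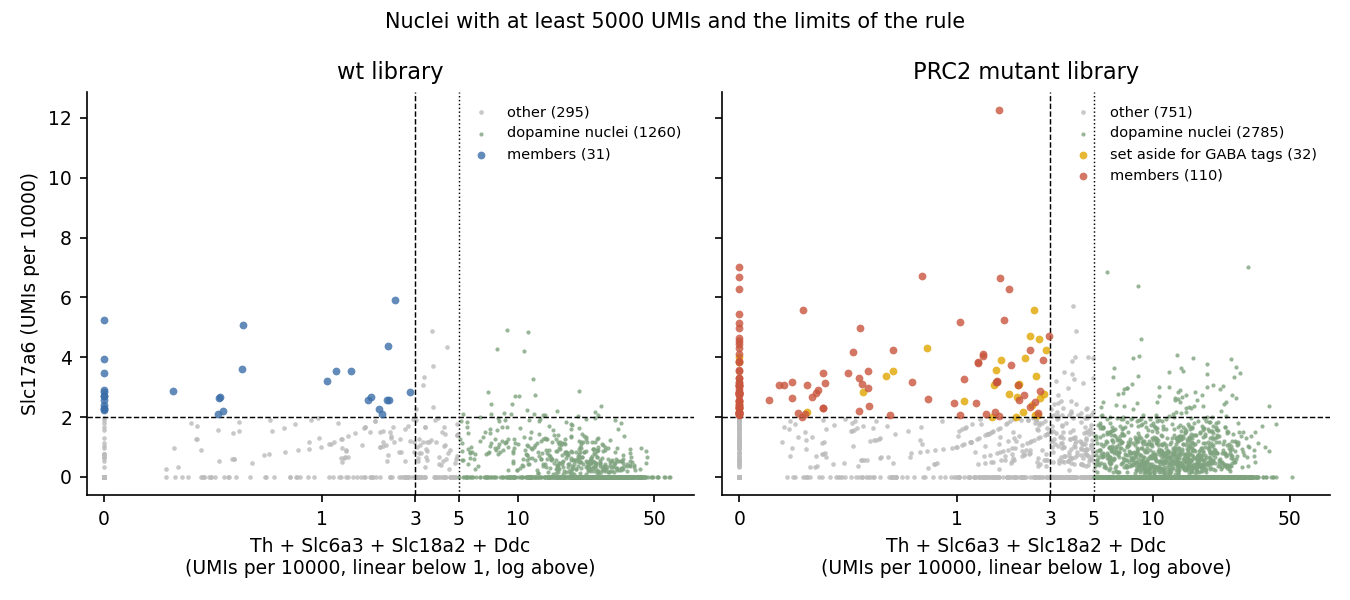
Each point is 1 nucleus with at least 5000 UMIs, with its dopamine tags on the x axis (UMIs per 10000, linear below 1 and logarithmic above) and its Slc17a6 on the y axis (UMIs per 10000). Dashed lines are the limits of the rule and the dotted line is the lower limit of the dopamine nuclei. The 31 wt and 110 mutant Slc17a6 nuclei (named members in the plots) lie in the upper left of their panels, where the mutant library also holds 32 nuclei that were set aside for their GABA tags.

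The rule chose nuclei on Slc17a6, so its level there is a description. Slc17a6 (chr7:51622006-51671119, plus strand, mm10) ran from 2.09 through a median of 2.71 to 5.93 UMIs per 10000 in wt Slc17a6 nuclei. In mutant Slc17a6 nuclei it ran from 2.02 through 3.06 to 12.3. Summed over nuclei and set against all UMIs of the same nuclei, where 100 CPM is 1 UMI per 10000, it stood at 285 CPM in wt and 333 CPM in mutant. Dopamine nuclei held 24.6 and 31.7 CPM. The highest value under the Slc17a6 limit was 2.00 and the lowest above it 2.02 UMIs per 10000, so the limit cut through a continuous range.

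The other vesicular glutamate transporters were near the limit of counting. Slc17a7 had 0 UMIs in wt and 5 UMIs in mutant Slc17a6 nuclei, and Slc17a8 had 1 UMI in each. The other 8 genes of glutamate transmission were counted neither higher nor lower than in dopamine nuclei, with median log2 ratios of 0.23 in wt and 0.22 in mutant. The neuronal markers Snap25 and Map2 were tagged in all 31 wt and all 110 mutant Slc17a6 nuclei. Rbfox3 (NeuN) was tagged in 29 of 31 and 102 of 110, and Nefm of the same list in 6 and 37. The list of pan-neuronal markers summed to 3837 CPM in wt and 4469 CPM in mutant Slc17a6 nuclei. Dopamine nuclei held more, at 6773 and 5562 CPM. Of 7 tested genes of this list, Nefl was counted as higher than in dopamine nuclei and none as lower. Tags of 5 glial and vascular marker lists summed to 203 CPM in wt and 198 CPM in mutant Slc17a6 nuclei, against 325 and 267 CPM in dopamine nuclei. Of the Slc17a6 nuclei, 1 wt and 5 mutant ones had 10 or more such tags per 10000. Cholinergic and motor markers summed to 0 and 5.11 CPM, and serotonergic and noradrenergic markers to 1.39 and 1.46 CPM. The nuclei thus carried neuronal and Slc17a6 tags, while the genes that define the labelled cell type mDA were kept low by the rule.

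Dopamine tags, also used by the rule, were low but not absent. They ran from 0 through a median of 0.532 to 2.84 per 10000 in wt Slc17a6 nuclei and from 0 through 0.278 to 2.94 in mutant ones. At least 1 dopamine tag was present in 19 of 31 wt and 61 of 110 mutant nuclei. Just outside this limit the next nucleus that met the other limits had 3.02 per 10000. Most of these tags were from Slc18a2, the vesicular monoamine transporter, and Ddc, the enzyme that makes dopamine from L-DOPA. Slc18a2 stood at 37.5 CPM in wt and 30.7 CPM in mutant Slc17a6 nuclei, against 780 and 308 CPM in dopamine nuclei.

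The limit on GABA tags acted on the mutant library alone. Of the nuclei that met the other limits, it removed 0 of 31 in wt and 32 of 142 in mutant. In the 32 removed mutant nuclei, Gad1, which makes GABA from glutamate, stood at 149.5 CPM. Gad1 stood at 4.18 CPM in wt dopamine nuclei and 99.6 CPM in mutant dopamine nuclei. In the Slc17a6 nuclei, where the rule kept it low, it stood at 6.94 and 8.76 CPM. The nuclei just inside and just outside this limit had 1.48 and 1.53 GABA tags per 10000.

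Outside the genes of the rule, the Slc17a6 nuclei differed from dopamine nuclei in both libraries in the genes of the dopamine neuron program. A gene was counted as higher or lower when the ratio of CPM + 5 was at least 2-fold in the same direction in both libraries, with at least 50 UMIs in all. Of 16394 genes, 217 were higher in Slc17a6 nuclei (1.32%) and 171 were lower (1.04%). The median log2 ratio of all genes was -0.05 in wt and -0.03 in mutant. This is the contrast that the rule itself draws, so these counts describe the chosen nuclei and carry no test.

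Of 10 tested genes of dopamine transmission that the rule did not use, 4 were lower, 6 were counted in neither direction and none was higher, with a median log2 ratio of -0.75 in wt and -0.45 in mutant. The 4 were Drd2, the dopamine autoreceptor, Aldh1a1, an aldehyde dehydrogenase of one dopamine subtype, Gch1, which starts synthesis of the cofactor of Th, and Slc10a4, a vesicle protein of monoamine neurons. Drd2 (chr9:49340627-49408177, plus strand) ran from 0 through a median of 0 to 1.78 UMIs per 10000 in wt Slc17a6 nuclei and from 0 through 2.62 to 20.9 in wt dopamine nuclei. In mutant it ran from 0 through 0 to 2.61 and from 0 through 1.87 to 11.2. The ranges overlapped at their low ends, and the medians were apart in both libraries. Summed, Drd2 was 18.6-fold lower in wt (10.6 to 36) and 21.6-fold lower in mutant (15.04 to 32.3).

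Among 19 other genes known from dopamine neurons, 13 were lower in Slc17a6 nuclei and none was higher, with median log2 ratios of -2.05 and -1.80. They included Ret, the receptor of the GDNF family, which was 7.02-fold lower in wt (4.49 to 11.7) and 13.6-fold lower in mutant (10.2 to 18.5). Chrnb3, a nicotinic acetylcholine receptor subunit, was 13.6-fold lower (6.89 to 31.5) and 19.6-fold lower (12.3 to 33.7). The potassium channel subunit Kcnj6 (GIRK2) was lower by less, at 3.90-fold (3.39 to 4.52) and 2.67-fold (2.47 to 2.90). It still had tags in 30 of 31 wt and 98 of 110 mutant Slc17a6 nuclei.

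The transcription factors of dopamine neurons divided. Of 14 regulators, 8 were lower, among them En1, En2, Lmx1b, Pitx3, Sox6, Satb1 and Bnc2. En1, a homeobox gene that dopamine neurons need for survival, stood at 4.16 CPM in wt and 2.55 CPM in mutant Slc17a6 nuclei, against 74.9 and 29.3 CPM in dopamine nuclei. Lmx1a, a homeobox regulator of floor plate progenitors, was at the level of dopamine nuclei, with 107 and 117 CPM against 115 and 100.4 CPM and log2 ratios of -0.10 and 0.22. It was tagged in 15 of 31 wt and 48 of 110 mutant Slc17a6 nuclei. Nr4a2 (NURR1) had log2 ratios of -0.93 and -0.11. The only one of the 14 to be counted as higher was Nfix, a nuclear factor I gene, which was 5.08-fold higher in wt (3.56 to 7.06) and 2.90-fold higher in mutant (2.38 to 3.52).

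**Figure D2:**
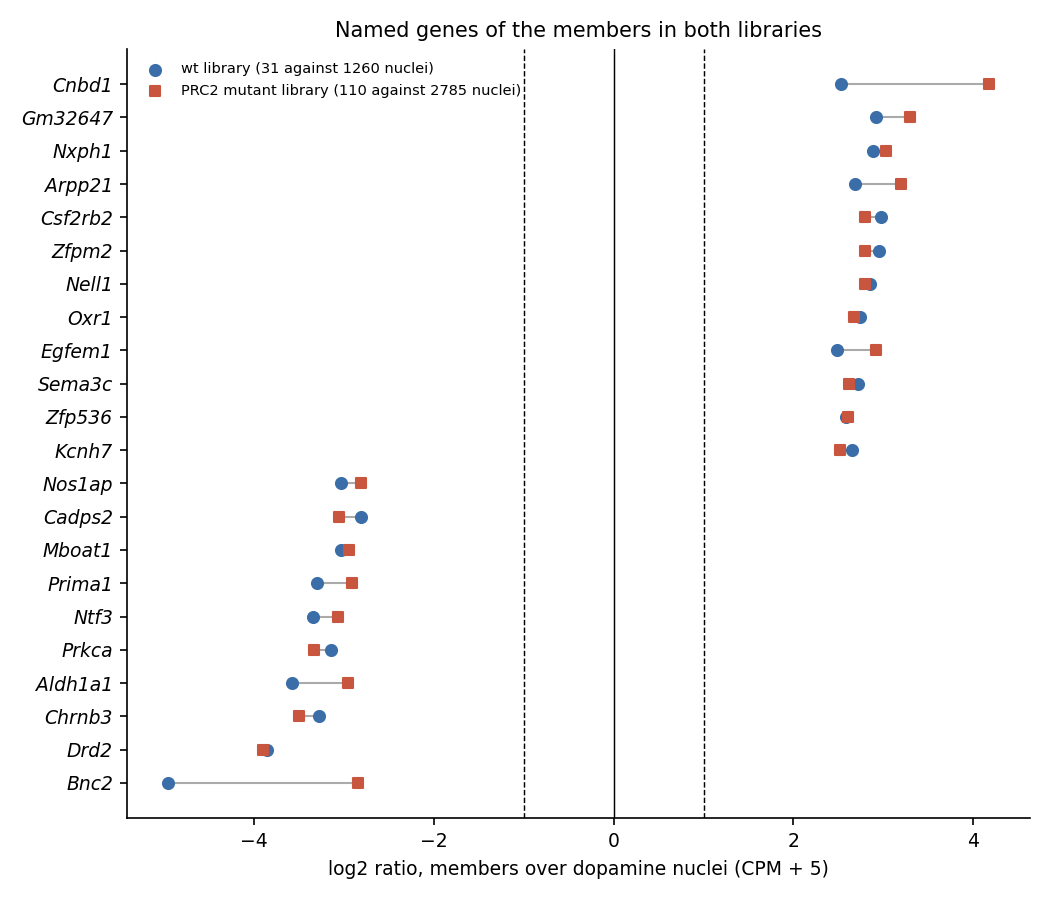
Points give the log2 ratio of summed CPM + 5 in Slc17a6 nuclei over dopamine nuclei (x axis) for the 12 genes that were most higher and the 10 that were most lower by the weaker of both libraries (y axis), without the genes of the rule. Circles are the wt and squares the mutant library, and dashed lines mark a 2-fold ratio. Both libraries lie close together for most genes, while Bnc2 and Cnbd1 differ between them.

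Among the 12 genes that led the Slc17a6 nuclei, Nxph1 (neurexophilin 1, a secreted ligand of neurexins, chr6:8948431-9249032, plus strand) ran from 0 through a median of 13.0 to 67.9 UMIs per 10000 in wt Slc17a6 nuclei. In mutant Slc17a6 nuclei it ran from 0 through 9.50 to 75.2. In dopamine nuclei the medians were 0.416 and 0, with single nuclei as high as 77.9 and 56.0. The summed ratio was 7.47-fold (7.10 to 7.85) in wt and 8.35-fold (8.08 to 8.63) in mutant. Nxph1 was tagged in 26 of 31 and 87 of 110 Slc17a6 nuclei, and in 54.9% and 48.1% of dopamine nuclei.

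Some leading genes were spread over nearly all Slc17a6 nuclei, and others sat in few. Kcnh7, a potassium channel of the ERG family, was tagged in 31 of 31 wt and 109 of 110 mutant Slc17a6 nuclei. It was 6.40-fold (6.02 to 6.80) and 5.81-fold (5.61 to 6.02) higher than in dopamine nuclei. Arpp21, a phosphoprotein regulated by cyclic AMP, was tagged in 29 of 31 and 100 of 110, and Oxr1, an oxidation resistance gene, in 29 and 105. Zfpm2 (FOG2, a cofactor of GATA factors) was tagged in 16 and 63 of them and was 8.38-fold (7.44 to 9.42) and 7.54-fold (7.03 to 8.09) higher. Csf2rb2, a cytokine receptor subunit, was tagged in 4 and 26 nuclei only. Sema3c, a secreted semaphorin, was tagged in 8 and 30. The remaining named genes were Gm32647, Nell1, Zfp536, Egfem1 and Cnbd1.

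The named genes that were lower, besides Drd2, Chrnb3, Aldh1a1 and Bnc2, were Prkca, Ntf3, Mboat1, Prima1, Nos1ap and Cadps2. Bnc2, a zinc finger gene, was 43-fold (22.6 to 94.1) lower in wt and 7.73-fold (6.61 to 9.10) lower in mutant. Prkca (protein kinase C alpha) had a median of 1.27 UMIs per 10000 in wt Slc17a6 nuclei and 13.0 in wt dopamine nuclei. The mutant medians were 1.19 and 14.4. It was 9.09-fold (7.62 to 10.9) and 10.3-fold (9.42 to 11.4) lower. Ntf3, the neurotrophin-3 gene, had 3 UMIs in wt and 5 UMIs in mutant Slc17a6 nuclei, against 87.8 and 52.1 CPM in dopamine nuclei. Cadps2, which primes dense-core vesicles, stood at 183 and 101 CPM against 1311 and 872 CPM.

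Receptor genes also distinguished the Slc17a6 nuclei. Of 24 glutamate receptor genes, 4 were higher and 2 lower, with median log2 ratios of 0.35 and 0.34. The metabotropic receptor Grm8 stood at 1485 and 1228 CPM against 276 and 226 CPM, a ratio of 5.39 (5.05 to 5.74) in wt and 5.43 (5.23 to 5.63) in mutant. The kainate receptor subunit Grik2 was 3.60-fold (3.46 to 3.74) and 3.40-fold (3.32 to 3.48) higher, and Grm7 was also among the 4. The lower ones were Grik3 and Grin2c. AMPA receptor subunits Gria1 to Gria4 had log2 ratios between -0.15 and 0.62 over both libraries, none counted in either direction.

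Of 18 GABA-A and glycine receptor genes, 4 were higher and none was lower. Gabra5 was 5.76-fold (4.21 to 7.72) and 4.61-fold (3.87 to 5.47) higher. Gabrb2 and Gabrg1 were also among the 4. Among 24 tested receptors for monoamines and acetylcholine, 5 were higher and 5 lower. The higher ones were the serotonin receptors Htr2c, Htr1f and Htr4 and the muscarinic receptors Chrm2 and Chrm3. Htr2c stood at 1277 and 851 CPM against 222 and 186 CPM. The lower ones were Drd2 and the nicotinic subunits Chrna4, Chrna5, Chrna6 and Chrnb3. Of 16 tested neuropeptide genes, none was counted in either direction.

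The Slc17a6 nuclei were not of 1 kind. Of 50 tested regional regulators of glutamatergic neurons, 1 was higher in both libraries, Tcf7l2, and 2 were lower, Lmo3 and Zfhx3. Tcf7l2 (chr19:55741820-55933654, plus strand), a transcription factor of the Wnt pathway known from thalamus and habenula, was 3.73-fold (2.57 to 5.26) higher in wt and 14.7-fold (13.1 to 16.5) higher in mutant. It was tagged in only 4 of 31 wt and 32 of 110 mutant nuclei.

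Clustering of the 141 nuclei on their most variable genes (Ward linkage) divided them into 6 groups. The clustering saw every gene, so the leading genes are a description and the groups carry no test. Group 1 held 62 nuclei (13 wt and 49 mutant) and was led by Zfp521, Lypd6b, Kctd8, Ankfn1 and Hs3st4. Its nuclei also held most of the Bnc2, Meis2, Sv2c and Ebf2 tags. Bnc2 stood at 99.3 CPM there and 5.29 CPM in the other groups, in 16 tagged nuclei. Meis2, a homeobox regulator, stood at 126 and 10.1 CPM, in 11 tagged nuclei. Group 1 was thus itself mixed.

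Groups 2 and 4 were the ones with Barhl2. Group 2 held 21 nuclei (4 wt and 17 mutant), led by Cnbd1, 4930467D21Rik, Lama2, Fbn2 and Chn2. Group 4 held 16 nuclei (3 wt and 13 mutant), led by Adgrv1, Sox6, Rspo2, Ust and Nfix. Lmx1a was tagged in 19 of 21 and 16 of 16 of them, at 234 and 377 CPM, and in 13 of 18 nuclei of group 3 at 112 CPM. Barhl2, another homeobox gene, was tagged in 8 and 6 nuclei and in none of the other groups. Nr4a2 was tagged in 19 and 13. Foxa1, a forkhead gene, was tagged in 2 and 0 of these nuclei and Barhl1 in 1 and 3, and no cell type name is given.

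Group 5 held 15 nuclei, 1 wt and 14 mutant, and was led by Lef1, Synpo2, Fam19a4, 9330185C12Rik and Rnf220. Of 8 thalamic and habenular markers, Tcf7l2 and Rora were tagged in 15 of 15 nuclei, Lef1 in 11, Shox2 in 9, Prkcd in 6, Nwd2 in 2, Gbx2 in 1 and Gng8 in 0. Rora was tagged in nearly every nucleus of the other groups as well, such as 61 of 62 in group 1. Nwd2 was lower in group 5, at 25.4 CPM against 203 CPM in the other Slc17a6 nuclei. Tcf7l2 stood at 719 CPM against 88.7 CPM in the other Slc17a6 nuclei, Rora at 3908 against 1312 CPM, and Prkcd at 95.4 against 1.59 CPM. No cell type name is given to it. Of the 5 mutant Slc17a6 nuclei with 10 or more glial and vascular tags per 10000, 4 were in group 5. Oligodendrocyte markers summed to 401 CPM there, against 22.7 to 238 CPM in each of the other groups. With 8 groups in place of 6, it divided into 8 nuclei with a median of 0.647 such tags per 10000 and 7 nuclei, all mutant, with a median of 12.6. Lmx1a was tagged in 0 of its 15 nuclei, and Slc18a2 and Ddc in 1 each. Of these 15 nuclei, 14 came from the mutant library, which held 110 of all 141 Slc17a6 nuclei. Group 5 may reflect that library and not a type, which was not tested.

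Group 3 held 18 nuclei (6 wt and 12 mutant), led by Npsr1, Zbbx, Gda, Gm48485 and Adamts18. Npsr1 is the receptor of neuropeptide S. This group had the most dopamine tags, with a median of 1.61 per 10000 against at most 0.540 in each of the others. Ddc was tagged in 15 of its 18 nuclei, at 97.4 CPM against 15.1 CPM elsewhere, and Tac1, the substance P gene, in 9. Group 6 held 9 nuclei (4 wt and 5 mutant), led by B230323A14Rik, Myo5b, Sox5, Sim1 and Mamdc2. Sim1, a hypothalamic and midbrain regulator, was tagged in 7 of 9. Lmx1a and Nr4a2 were tagged in 0 of 9.

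**Figure D3:**
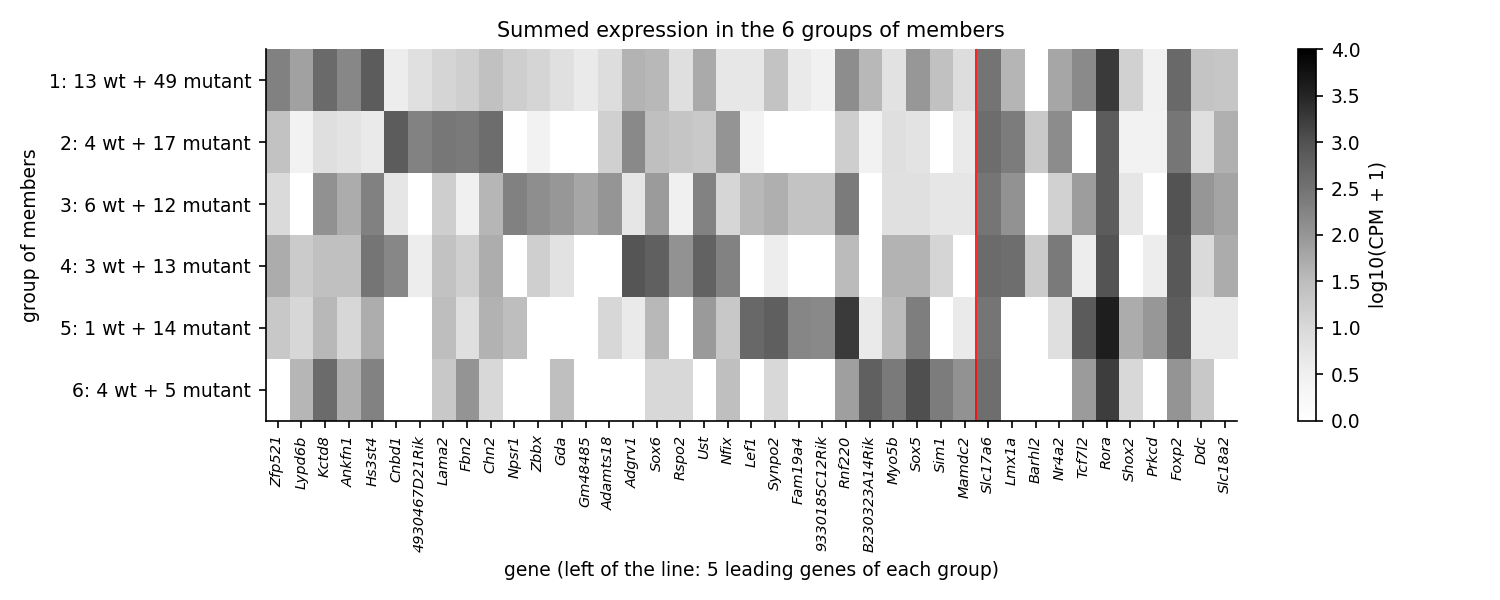
Shading gives log10(CPM + 1) of summed counts in the 6 groups of Slc17a6 nuclei (rows, with their wt and mutant nuclei) for the 5 leading genes of each group, left of the line, and for Slc17a6, regional regulators and dopamine genes, right of it. Slc17a6 is present in every group, Lmx1a is at 0 in groups 5 and 6, and Tcf7l2 is highest in group 5.

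In the comparison of mutant with wt Slc17a6 nuclei, the first question was whether lists of developmental regulators were higher in mutant, as their sum was in dopamine nuclei. The lists also hold genes that are expressed in wt. The targeted gene gives no check of the genotype, since the 3′ tags of Eed need not lie in a deleted part. Eed stood at 16.7 CPM in wt and 21.2 CPM in mutant Slc17a6 nuclei, a ratio of 1.27 (0.675 to 2.60). In dopamine nuclei it stood at 21.3 and 41.2 CPM, a ratio of 1.94 (1.79 to 2.09).

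Hox genes were low in the Slc17a6 nuclei. They had 0 UMIs in the 31 wt nuclei and 81 UMIs in the 110 mutant nuclei, which is 29.6 CPM (23.5 to 36.7). The floor of 3 counts in wt is 4.16 CPM, and the mutant level was 7.10 times this floor. That ratio is not a lower limit, since the exact upper limit for 0 wt UMIs is 5.12 CPM. Mutant dopamine nuclei held 527 CPM. Of the 110 mutant Slc17a6 nuclei, 88 had no Hox tag and 14 had exactly 1. The 3 nuclei with the most held 29, 12 and 10 Hox UMIs, or 63.0% of the 81. Without these 3 nuclei the level was 11.3 CPM.

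Nuclei of another type that should lack Hox RNA were set beside them. In nuclei with at least 30 oligodendrocyte tags per 10000, Hox genes stood at 78.6 CPM (57.1 to 105.5) in mutant, in 8 of 64 nuclei. After thinning to 2000 UMIs, a Hox tag was present in 4 of 110 mutant Slc17a6 nuclei (3.64%, 1.00% to 9.05%), in 4 of 64 oligodendrocyte-type nuclei (6.25%, 1.73% to 15.2%) and in 48.1% of mutant dopamine nuclei (46.2% to 49.9%). Unthinned, a Hox tag was present in 22 of 110, 8 of 64 and 81.0% of these nuclei, at median depths of 21075, 5740 and 19602 UMIs. Those oligodendrocyte-type nuclei were not limited on dopamine tags, and 21 of the 64 had 3 or more per 10000. The other 43, at a median depth of 4531 UMIs, had 1 Hox UMI in all, which is 3.75 CPM (0.0948 to 20.9), below the 29.6 CPM of mutant Slc17a6 nuclei. Thinned to 2000 UMIs in a separate random draw, 1 of these 43 had a Hox tag (2.33%, 0.0589% to 12.3%). This interval overlaps that of the Slc17a6 nuclei. The same draw gave 3 of all 64 oligodendrocyte-type nuclei (4.69%, 0.977% to 13.1%) and 4 of 110 Slc17a6 nuclei. At this depth a difference in the share of tagged nuclei was not detectable. The 3 nuclei with 10 or more Hox UMIs had 0.562, 2.07 and 0 dopamine tags per 10000.

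Over all 3 regulator lists (Hox genes, other homeobox genes and developmental regulators without a homeobox), the Slc17a6 nuclei differed by less than dopamine nuclei did. The summed level was 637 CPM in wt and 1005 CPM in mutant Slc17a6 nuclei, a ratio of 1.58 (1.43 to 1.75). Per nucleus it ran from 1.77 through a median of 6.37 to 29.7 tags per 10000 in wt and from 0.793 through 9.98 to 30.7 in mutant, so the 2 sets overlapped over nearly all of their range. In dopamine nuclei the sum went from 964 to 2708 CPM, a ratio of 2.81 (2.78 to 2.84), with medians of 9.24 and 26.7 per 10000.

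By list, other homeobox genes stood at 358 and 439 CPM in the Slc17a6 nuclei, a ratio of 1.22 (1.07 to 1.41). Lmx1a, which wt nuclei express, stood at 107 and 117 CPM and is part of this sum. In dopamine nuclei, 31 of 88 tested genes of this list were higher in mutant. En1, Pitx3 and Pou3f2 were lower. Of all genes there, 0.97% were higher and 0.295% lower. Developmental regulators without a homeobox stood at 279 and 537 CPM in the Slc17a6 nuclei, a ratio of 1.93 (1.66 to 2.24). The latter list holds Lef1 and Ebf2. Without Lef1 and the Hox genes, the ratio in Slc17a6 nuclei was 1.43 (1.30 to 1.59). The same sum had a ratio of 1.10 (0.958 to 1.25) in all 52 and 64 oligodendrocyte-type nuclei and 1.27 (1.19 to 1.36) in GABA nuclei with few dopamine tags. Single genes of the lists differed. The homeobox gene Pax3 had 0 and 9 UMIs in Slc17a6 nuclei, and 99.0 CPM in mutant dopamine nuclei. Lef1 stood at 62.4 CPM in mutant Slc17a6 nuclei and 33.0 CPM in mutant dopamine nuclei, and Lhx9 at 22.3 and 14.7 CPM. Outside the lists, Cdkn2a, a cell cycle inhibitor under Polycomb control, had 0 and 7 UMIs in Slc17a6 nuclei, against 0.0255 and 18.3 CPM in dopamine nuclei.

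Dopamine nuclei that also had at least 2 Slc17a6 UMIs per 10000 lay between. In these 26 wt and 76 mutant nuclei the regulator sum was 885 and 1974 CPM, a ratio of 2.23 (2.02 to 2.46), and Hox genes stood at 0 and 130.5 CPM. The 32 mutant nuclei set aside for GABA tags had 1574 CPM of regulators and 151 CPM of Hox genes, both above the mutant Slc17a6 nuclei. With these 32 nuclei included, the Hox level of the mutant set was 53.4 CPM and the regulator ratio 1.75. The limit on GABA tags thus sets part of how low these values are.

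**Figure D4:**
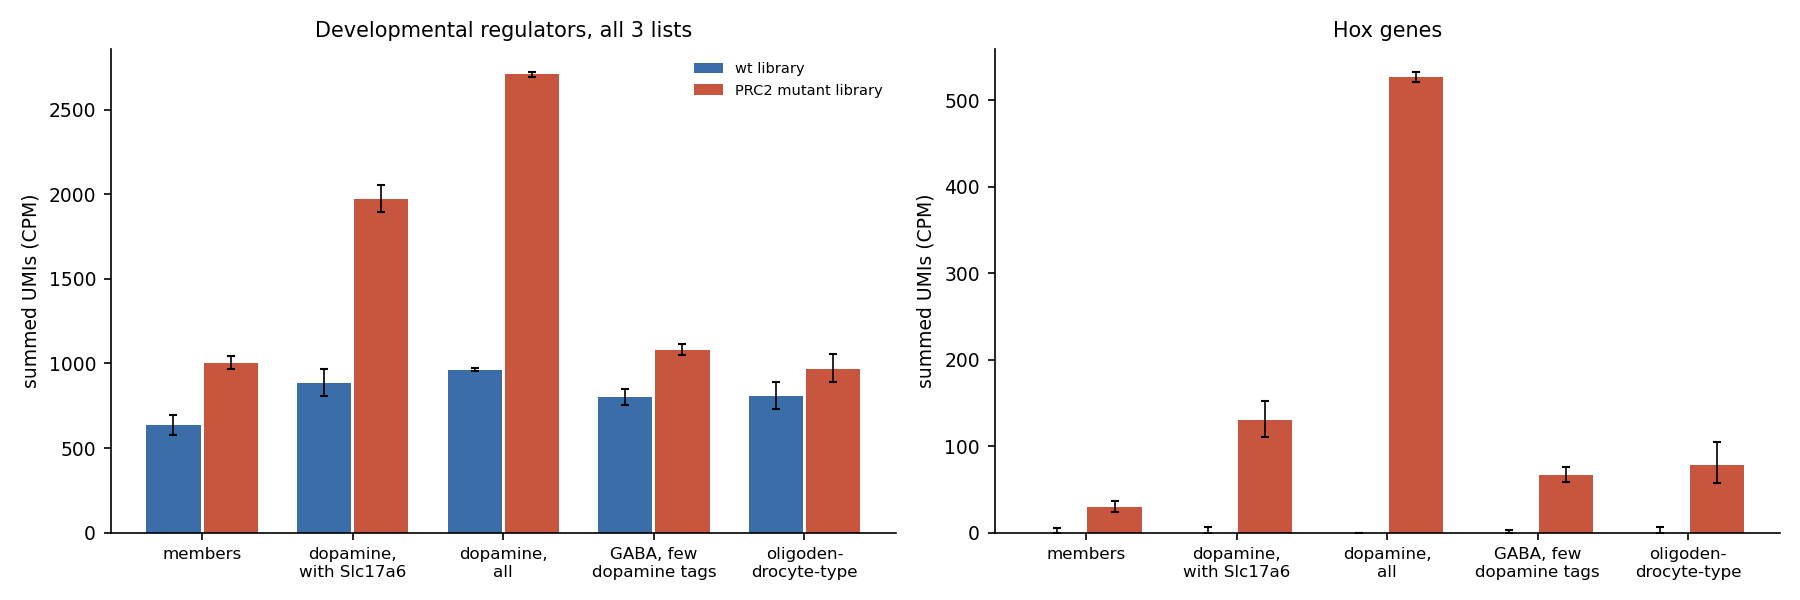
Bars give the summed level (CPM, y axis from 0) of all 3 regulator lists (left) and of the Hox genes alone (right) in 5 classes of nuclei, for the wt and the mutant library, and whiskers are exact 95% counting intervals. The mutant Slc17a6 nuclei (labelled members) reach 1005 and 29.6 CPM, against 2708 and 527 CPM in mutant dopamine nuclei.

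Across all genes, 7645 had at least 50 UMIs in the Slc17a6 nuclei. In mutant, 136 of them were higher by 2-fold or more (1.78%) and 47 lower by as much (0.615%), with a median log2 ratio of 0.04. The 50 UMIs were summed over both libraries, with 720688 UMIs in wt and 2740600 in mutant. A gene found in mutant alone thus passed at a lower CPM than one found in wt alone. The counts of higher and lower genes are therefore not on equal terms. Among dopamine nuclei, 158 of 16294 genes were higher (0.97%) and 48 lower (0.295%). With 31 wt nuclei of mixed kinds, such counts turn on few nuclei. When Slc17a6 nuclei were required to have 3 Slc17a6 UMIs per 10000, 10 wt and 57 mutant nuclei were left. The counts became 315 and 85, and only 30 and 6 of those genes were among the 136 and 47.

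Lef1, a transcription factor of the Wnt pathway (chr3:131110471-131224356, plus strand), led the genes that were higher in mutant. It had 0 UMIs in wt and 171 UMIs in 17 of 110 mutant nuclei, where single nuclei ranged from 0 through a median of 0 to 9.68 per 10000. The mutant level of 62.4 CPM was 14.99 times the floor, and the exact lower limit of the ratio was 12.1. In mutant, 15 of the 17 nuclei with a Lef1 tag also had a Tcf7l2 tag. Group 5 held 147 of the 171 UMIs. Outside group 5, Lef1 stood at 0 and 9.86 CPM, a ratio with an exact lower limit of 1.76. In dopamine nuclei Lef1 was 10.4-fold higher in mutant (8.65 to 12.5), at 33.0 CPM.

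The next genes shared this pattern in part. Synpo2, an actin-binding protein, stood at 8.32 and 91.2 CPM, a ratio of 11.0 (4.96 to 30.1), and outside group 5 at 7.02 and 23.4 CPM, a ratio of 3.33 (1.35 to 10.7). Plekhg1, a guanine nucleotide exchange factor, had ratios of 5.31 (3.36 to 8.92) and, outside group 5, 2.25 (1.39 to 3.84). Tcf7l2 had ratios of 3.53 (2.50 to 5.13) and 2.52 (1.71 to 3.84). Within group 5 it stood at 687 CPM in the 1 wt nucleus and 720 CPM in the 14 mutant nuclei. Group 5 held 1 of 31 wt and 14 of 110 mutant nuclei. Lef1 and Synpo2 lead this group, and Plekhg1 ranks next after its 5 named leading genes. The clustering used the same counts, so smaller ratios without group 5 follow in part from how it was made. The part of group 5 in the higher sums was not tested, and leaving the group out cannot decide it. Without the nuclei with 10 or more glial and vascular tags per 10000, the log2 ratios of mutant over wt were 3.56 for Lef1, 2.54 for Synpo2 and 2.10 for Plekhg1, against 3.75, 2.85 and 2.21 with them.

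Rxfp1, Cgnl1, Gm39185 and Tuba4a were about as high without group 5. Rxfp1, the relaxin receptor (chr3:79641611-79737880, minus strand), had 0 UMIs in wt and 122 UMIs in 17 mutant nuclei, 10 of them in group 2. The exact lower limit of its ratio was 8.57 in all Slc17a6 nuclei and 8.34 outside group 5. In dopamine nuclei it stood at 4.76 CPM in wt and 1.05 CPM in mutant. Cgnl1, a cell junction protein, had 1 and 66 UMIs, a ratio of 17.4 (3.01 to 696), and Gm39185 had 1 and 59 UMIs. Tuba4a, an alpha-tubulin, was spread over more nuclei, with 1 UMI in 1 of 31 wt nuclei and 56 UMIs in 34 of 110 mutant nuclei, a ratio of 14.7 (2.54 to 592). The wide intervals come from single wt counts.

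Transcription factors among these named genes were Ebf2, Lhx9, Bnc2 and Nr4a3. Ebf2 stood at 23.6 and 105 CPM, a ratio of 4.45 (2.73 to 7.75), and Lhx9 had 2 and 61 UMIs, a ratio of 8.02 (2.13 to 67.7). Bnc2 had a ratio of 4.59 (2.36 to 10.2), with 96 of its 157 mutant UMIs in 3 nuclei. Nr4a3, which neuronal activity induces, had 3 UMIs in 1 wt nucleus and 88 UMIs in 19 mutant nuclei, 54 of them in 3 nuclei. In dopamine nuclei Lhx9 was 14.4-fold (10.5 to 20.3), Nr4a3 6.075-fold (5.19 to 7.15) and Ebf2 1.49-fold (1.40 to 1.60) higher in mutant. Bnc2 was 1.21-fold (1.19 to 1.23) lower there. Chst9, Hs3st2, Sv2c and 3110043O21Rik complete the 15 genes. Hs3st2 had a ratio of 6.92 (2.29 to 34.3), and of 17.4 (3.03 to 695) without the deepest wt nucleus.

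Of the regulator lists, few genes reached 50 UMIs in Slc17a6 nuclei. Of 7 tested homeobox genes outside Hox, Lhx9 and Pou3f2 were higher in mutant and Pax5 was lower. Of 5 tested developmental regulators without a homeobox, Lef1, Ebf2 and Runx2 were higher. Over all 7645 tested genes, 1.78% were higher and 0.615% lower. The 50 UMIs were summed over both libraries, and mutant held more of them. Lef1 (0 wt and 171 mutant UMIs), Lhx9 (2 and 61) and Pou3f2 (3 and 56) passed on their mutant counts alone. These counts therefore describe the few genes that passed and not the lists. No Hox gene reached 50 UMIs. Immediate early genes, 18 genes that activity or tissue handling can induce, summed to 49.95 CPM in wt and 156 CPM in mutant Slc17a6 nuclei, a ratio of 3.13 (2.22 to 4.52). The sum was 1.89-fold (1.80 to 1.98) higher in mutant dopamine nuclei and 1.97-fold (1.504 to 2.63) higher in GABA nuclei with few dopamine tags. Its part in the other differences was not tested.

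The genes that were lower in mutant were mostly carried by few wt nuclei. Npsr1 (chr9:24097996-24316398, plus strand) had 89 UMIs in 7 of 31 wt nuclei and 36 UMIs in 15 of 110 mutant nuclei, a ratio of 9.40 (6.32 to 14.3) in favour of wt. Of the 89 UMIs, 49 came from the deepest wt nucleus. Without it, Npsr1 stood at 66.4 and 13.1 CPM, a ratio of 5.05 (3.14 to 8.16). Sulf1, an extracellular sulfatase, was 5.42-fold (4.09 to 7.21) lower, with 52 of its 124 wt UMIs from 1 nucleus. All 34 wt UMIs of Pax5 came from 3 nuclei.

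Mid1, a ubiquitin ligase gene, was spread more widely. It was tagged in 21 of 31 wt and 46 of 110 mutant nuclei, with medians of 0.887 and 0 per 10000, and was 3.91-fold (2.98 to 5.12) lower in mutant. Without the deepest wt nucleus it stood at 151 and 40.5 CPM. Mid1 was also 2.56-fold (2.46 to 2.66) lower in mutant dopamine nuclei. The named genes 3300002A11Rik and Spag16 were lower there as well, 7.03-fold (6.61 to 7.48) and 4.80-fold (4.34 to 5.31). Pax5 was 2.32-fold (2.00 to 2.71) higher there. The remaining named genes were Egflam, Zbbx, Gda and Nek10. Without the deepest wt nucleus, Spag16 went from 6.81-fold to 4.36-fold lower and Nek10 from 3.93-fold to 2.43-fold. Npsr1, Zbbx and Gda are leading genes of group 3, which held 6 of 31 wt and 12 of 110 mutant nuclei. Sulf1 ranks below the named leading genes of that group, at 263 CPM there and 28.2 CPM in the other Slc17a6 nuclei.

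Receptor and Polycomb genes were counted between the genotypes at the same 2-fold limit. Over all 7645 tested genes, 1.78% were higher in mutant and 0.615% were lower. In lists this short, a count of 0 is therefore close to the share of all genes. Of 22 tested glutamate receptor genes, Grik3 was lower, at 153 and 69.7 CPM, and none was higher. Of 15 GABA-A and glycine receptor genes, Gabra2 was lower, at 468 and 201 CPM, and none was higher. Of 9 tested monoamine and acetylcholine receptor genes, none was counted in either direction. Of 10 tested PRC2 subunit genes and 13 PRC1 subunit genes, none was counted either. Slc17a6 itself, which the rule used, had a log2 ratio of 0.22.

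**Figure D5:**
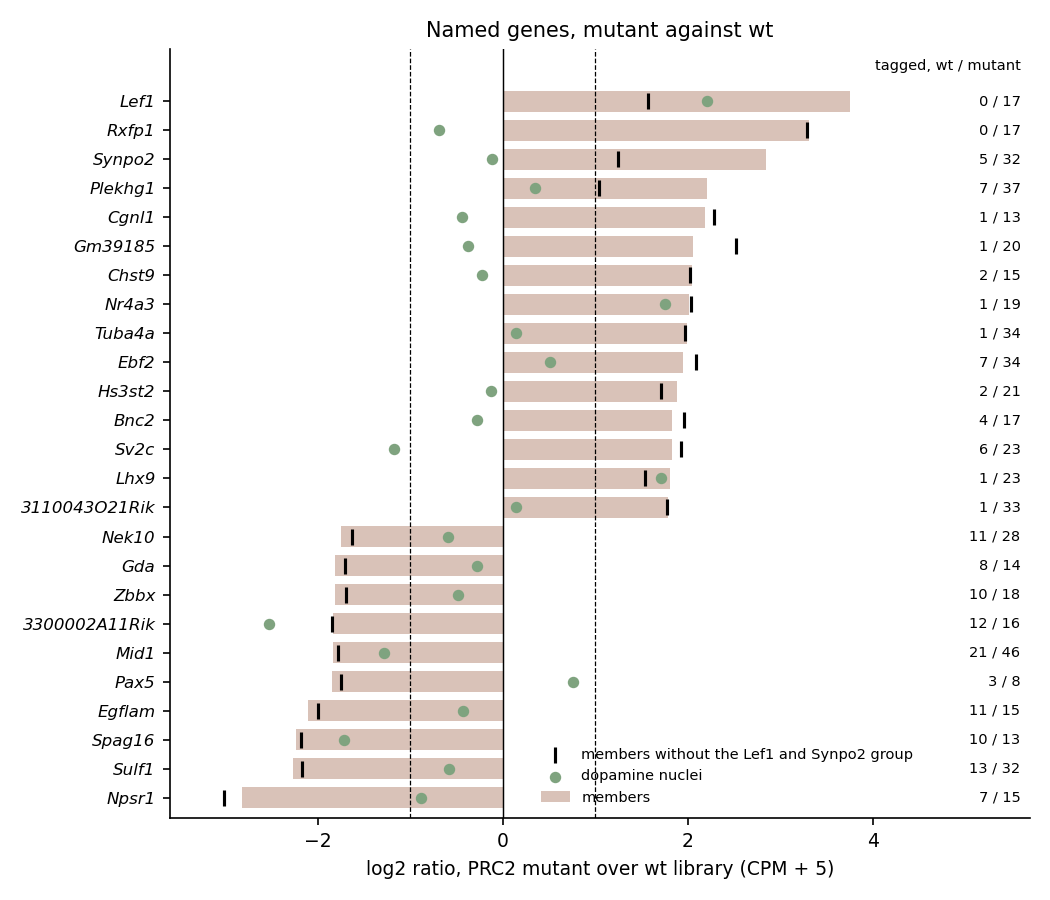
Bars give the log2 ratio of CPM + 5 in mutant over wt Slc17a6 nuclei (x axis) for the 15 highest and 10 lowest genes tagged in at least 10 of these nuclei (y axis), ticks the same without group 5 (the Lef1 and Synpo2 group), and dots the ratio in dopamine nuclei. The right column counts tagged nuclei of 31 wt and 110 mutant ones. Lef1, Synpo2 and Plekhg1 shrink without group 5, and Rxfp1 does not. Lef1 and Synpo2 lead that group, which was formed on the same counts.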

How the data were processed

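Nuclei were isolated and sorted by FACS, and libraries were made with the 10x Genomics Single Cell 3′ v3 kit, per the labels' protocols. The authors deposited UMI counts, not normalized, in a single table whose column names begin with WT or KO. Cell Ranger 3.1.0 and mm10 are named in the submitters' processing notes, without a role.

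Members and gene lists were chosen with earlier results of these data known. Counts were summed per class and library and given as CPM, log2 ratios used a pseudocount of 5 CPM, and genes needed 50 UMIs over the classes compared. Ratio intervals come from the exact binomial split of counts. Shares were taken after thinning to 5000 or 2000 UMIs. The comparison classes of GABA nuclei (at least 3 GABA tags and fewer than 2 Slc17a6 per 10000), dopamine nuclei with Slc17a6 and oligodendrocyte-type nuclei (at least 2000 UMIs), also limited to fewer than 3 dopamine tags per 10000, were chosen after the data were seen. Named genes were the 12 highest and 10 lowest by the weaker library against dopamine nuclei, and the 15 highest and 10 lowest in mutant against wt among genes tagged in at least 10 members. All others named are list genes, leading genes of groups or genes of the rule. Gene positions are from GENCODE M21. Counts were also simulated per library, without any spread between nuclei. There the interval of an unaltered gene held the true ratio in 95.8% of 7233 genes, and 13 of them were counted as 2-fold. Of 100 genes raised 4-fold, 100 were counted, and of 100 lowered 4-fold, 91. This checks the calculation only, since the real counts of many genes sit in few nuclei. Python 3.11.15, numpy 2.4.6, scipy 1.17.1 and pandas 2.3.3 were used. Alternatives covered the limits of the rule, the pseudocount, the gene filter, scaling, weighting and group number. The total was 720688 UMIs in wt and 2740600 in mutant members, so 1 UMI was 1.39 and 0.365 CPM. Some items are not reported here.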

Additional observations from a re-analysis of the deposited data

Results flagged for a closer look

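For 2 genes the direction between the genotypes was opposite in the Slc17a6 nuclei and in dopamine nuclei, at least 2-fold each way, and the difference between both ratios was not tested. Pou3f2, a POU homeobox gene, had a log2 ratio of mutant over wt of 1.47 in Slc17a6 nuclei, from 3 UMIs in 2 of 31 wt nuclei and 56 UMIs in 27 of 110 mutant nuclei. In dopamine nuclei its log2 ratio was -1.11, from 73.3 to 31.3 CPM. Sv2c, a synaptic vesicle protein, had a log2 ratio of 1.83 in Slc17a6 nuclei, from 8 UMIs in 6 wt nuclei and 143 UMIs in 23 mutant nuclei. In dopamine nuclei its log2 ratio was -1.18, from 551 to 240.2 CPM. Of the mutant nuclei with a Sv2c tag, 15 were in group 1.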

How the results depend on the processing

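Each alternative changed 1 choice. The counts against dopamine nuclei were 217 higher and 171 lower, and with a pseudocount of 1 CPM they were 389 and 336. They stayed within 1.5 times the reported counts under every other alternative run. The 136 genes higher in mutant Slc17a6 nuclei became 315 with Slc17a6 at 3 or more per 10000, 229 with a pseudocount of 1 CPM, 74 with 10 CPM, 276 with genes of at least 20 UMIs and 60 with at least 100. The 47 lower ones became 85, 96 and 21 with the Slc17a6, 20 UMI and 100 UMI settings. Of the 136 and 47, 91 and 22 were counted again with nuclei weighted equally, and 76 and 24 without the 5% of nuclei with the most UMIs. Dopamine tags below 1 per 10000 left 19 wt nuclei, and Slc17a6 at 3 or more left 10 wt and 57 mutant nuclei.

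The regulator ratio of 1.58 was 1.40 with dopamine tags below 1, 1.34 with Slc17a6 at 3 or more, 1.41 with nuclei weighted equally and, with no limit on GABA tags, 1.75. Hox genes in mutant stood at 14.3 CPM with GABA tags below 0.75, 53.4 CPM with no such limit and 11.3 CPM without the 3 nuclei with the most. The share with a Hox tag, 10.9% at 5000 UMIs, was 3.64% at 2000 and 5.26% with Slc17a6 at 3 or more. Pax5 turned to a log2 ratio of 1.06 with Slc17a6 at 3 or more. In these changes the cause was not tested, except that the settings on UMIs, Slc17a6 and nuclei change how many genes or nuclei enter. For the named genes and the group size, 572 values stayed within the counting interval of the reported one, 90 moved beyond it and 1 turned. The alternatives without group 5, without the deepest wt nucleus, without the top 3 Hox nuclei and with no GABA limit were chosen after seeing the data. No paired analysis was possible because each genotype has 1 library. Depth limits the wt side, where the exact upper limit for 0 UMIs is 5.12 CPM.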

Other observations

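Further genes set the Slc17a6 nuclei apart from each other. Foxp2, a forkhead transcription factor, was tagged in 18 of 18 nuclei of group 3 at 933 CPM and in 3 of 9 nuclei of group 6 at 103 CPM. Nxph1 ranged from 327 CPM in group 6 to 4184 CPM in group 2. Shox2, a homeobox gene, was tagged in 9 of 15 nuclei of group 5 and in 1 of 21 nuclei of group 2. Neurofilament genes differed as well. Nefl, the light chain, was higher in Slc17a6 nuclei than in dopamine nuclei, 3.38-fold (1.66 to 6.21) in wt and 5.04-fold (3.94 to 6.40) in mutant. Nefm, the medium chain, stood at 11.1 CPM in wt and 44.5 CPM in mutant Slc17a6 nuclei, in 6 of 31 and 37 of 110 nuclei. Igf1, a growth factor gene, stood at 11.1 and 29.6 CPM, in 5 and 27 nuclei.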
